A study of Mus musculus with 4 samples.

Results

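Toll-like receptors and their adaptor Myd88 were examined in libraries labelled as tumor-associated macrophages (TAMs) from NB9464 tumors, a transplantable mouse neuroblastoma. The 10 members were taken by symbol: the receptors Tlr1, Tlr2, Tlr3, Tlr4, Tlr6, Tlr7, Tlr8, Tlr9 and Tlr13, and Myd88. They were 10 of the 54532 genes in the count table, and all 10 were abundant enough to be tested among 16451 genes. Tumors arose from 4000000 implanted NB9464 cells and were collected on day 40 from myeloid Syk WT mice (2 libraries, M7 and M8) and myeloid Syk KO mice (2 libraries, M9 and M10), with no treatment in either group. Per the methods of the study, both strains were on the C57BL/6 background and the deletion used a floxed Syk allele with a lysozyme M promoter driving Cre, which acts in myeloid cells and not in the tumor cells. TAMs were pulled down with CD11b and F4/80 magnetic beads. The labels do not give the age or sex of these animals, nor whether libraries came from separate animals, so p-values measure the spread between libraries, which may be technical. The labels also name bone marrow-derived macrophages as the source of RNA in 1 sentence, while the other labels name TAMs. The title of the series calls the experiment an adoptive transfer, a step that the design text and the labelled protocols do not describe, so whether transferred macrophages were among these cells is not known.

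Toll-like receptors are pattern recognition receptors of innate immune cells. Tlr2 pairs with Tlr1 or Tlr6 at the cell surface to bind bacterial lipopeptides, and Tlr4 binds lipopolysaccharide together with Ly96 and Cd14. Tlr3, Tlr7, Tlr8, Tlr9 and Tlr13 act in endosomes, where they bind nucleic acids. Tlr3 binds double-stranded RNA, Tlr7 and Tlr8 are receptors for single-stranded RNA and its breakdown products, Tlr9 binds DNA with unmethylated CpG, and Tlr13 of mice binds bacterial ribosomal RNA. After ligand binding all of these receptors except Tlr3 recruit Myd88, which brings in Irak kinases and leads to NF-kappaB activation, whereas Tlr3 signals through Ticam1.

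Counts of the targeted gene, Syk, were higher under the label SYK KO. They were taken over the whole gene, so they cannot show whether the floxed part was deleted. The macrophage markers given below were higher by a like amount (median log2 fold change 2.82). The reason for the Syk values was not tested. Syk was counted 765 and 569 times under the label SYK WT and 4033 and 2944 times under the label SYK KO, a log2 fold change of 2.80 (SE 0.19, edgeR quasi-likelihood test, Benjamini-Hochberg adjusted p = 0.000674). Every direction below is therefore that of the libraries labelled SYK KO against those labelled SYK WT. Total counts ran from 20755886 to 23518045 per library. Mitochondrial genes took 2.20% and 2.34% of counts in the SYK WT libraries, 6.00% in M9 and 15.9% in M10. All 10 of 10 macrophage markers were higher in the SYK KO libraries (median log2 fold change 2.82, range 0.57 to 3.57), as were all 6 of 6 pan-leukocyte genes (median 3.57), and 6 of 8 fibroblast markers were lower (median -1.44). Levels are given as CPM, the count of a gene per 1000000 counts of the TMM-adjusted library total. The summed macrophage markers were at 1294 and 917 CPM in the SYK WT libraries and at 10373 and 6225 in the SYK KO libraries, while the summed fibroblast markers were at 12471 and 14368 against 4014 and 4865. The fibroblast sum was thus above the macrophage sum in both SYK WT libraries, though these are labelled as TAMs, and below it in both SYK KO libraries. Of 6 neuroblastoma genes 2 were tested: Gata3 was higher (log2 fold change 2.82) and Hand2, with 7182, 7403, 3666 and 5257 counts in M7, M8, M9 and M10, was not called, while Th and Dbh had 0 counts in every library. The sum of the 6 was 262 and 302 CPM in the SYK WT libraries and 179 and 289 CPM in the SYK KO libraries. In bulk RNA of this kind, fewer macrophages in a sample and less RNA of a gene per macrophage cannot be told apart, and this holds for every member below.

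The receptors lie in several clusters of the genome (mm10). Tlr1 (chr5:64924679-64933563) and Tlr6 (chr5:64952031-64960097) are neighbors on the minus strand, and Tlr7 (chrX:167304929-167330558) and Tlr8 (chrX:167242696-167264329) are neighbors on the minus strand of the X chromosome. Tlr13 (chrX:106143204-106160493) is X-linked as well. The others are Tlr2 (chr3:83836272-83841767), Tlr4 (chr4:66827584-66930284), Tlr3 (chr8:45395665-45411080), Tlr9 (chr9:106222598-106226883) and Myd88 (chr9:119335934-119341411).

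RefSeq promoter sequences (GRCm38.p6) were matched for 8 of the 10 members. They are shown for 4 receptors that differed strongly between the groups (Tlr1, Tlr8, Tlr9 and Tlr13) and for Tlr2, which differed least among the called members. Each line gives the bases before the first annotated exon, at most 250, 5′ to 3′ on the gene's strand. Capitals mark matches, on either strand, to a PU.1-type ETS motif (AGGAAG), an IRF-type motif (GAAANNGAA) or an NF-kappaB-type motif (GGGNNTTCC). The windows are chr5:64933564-64933808 (minus strand) for Tlr1, chr3:83841768-83841858 (minus) for Tlr2, chrX:167264330-167264579 (minus) for Tlr8, chr9:106222348-106222597 (plus) for Tlr9 and chrX:106143025-106143203 (plus) for Tlr13.
Tlr1: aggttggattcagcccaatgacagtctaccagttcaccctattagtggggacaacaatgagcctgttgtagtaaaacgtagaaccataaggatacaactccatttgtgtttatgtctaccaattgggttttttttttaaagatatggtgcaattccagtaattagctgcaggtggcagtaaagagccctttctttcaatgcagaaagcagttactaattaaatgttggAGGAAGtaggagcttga
Tlr2: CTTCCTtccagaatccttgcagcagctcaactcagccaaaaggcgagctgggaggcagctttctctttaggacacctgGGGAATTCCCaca
Tlr8: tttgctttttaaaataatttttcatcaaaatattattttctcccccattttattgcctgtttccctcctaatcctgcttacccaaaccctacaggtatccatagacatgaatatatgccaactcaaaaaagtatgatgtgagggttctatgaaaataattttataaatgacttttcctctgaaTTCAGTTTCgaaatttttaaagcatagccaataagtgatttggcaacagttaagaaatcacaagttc
Tlr9: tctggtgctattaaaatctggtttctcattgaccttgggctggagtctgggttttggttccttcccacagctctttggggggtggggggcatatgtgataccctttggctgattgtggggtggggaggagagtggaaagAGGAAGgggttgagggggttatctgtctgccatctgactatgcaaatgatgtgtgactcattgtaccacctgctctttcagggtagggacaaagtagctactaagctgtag
Tlr13: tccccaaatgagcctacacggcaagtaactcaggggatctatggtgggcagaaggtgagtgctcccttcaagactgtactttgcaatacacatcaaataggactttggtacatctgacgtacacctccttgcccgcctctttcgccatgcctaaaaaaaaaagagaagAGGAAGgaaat

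The 8 members had 10 windows, since some had more than 1, so counts of members are not shares of windows. Over the full 250-base windows, AGGAAG was found for 5 of the 8 members (Tlr1, Tlr2, Tlr6, Tlr9 and Tlr13). It was in 5 of their 10 windows, and 29.5% of all 32851 RefSeq windows of this length hold it. GAAANNGAA was found for Tlr6, Tlr8 and Myd88 (3 members, 7.13% of all windows). GGGNNTTCC was found for Tlr2 (1 member, 4.98% of all windows), where both strands match the same stretch and their matches overlap. These matches are letters only and say nothing about binding in these cells.

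The receptors of the cell surface were higher in the libraries labelled SYK KO under TMM scaling, though not when libraries were scaled to leukocyte markers (given below), and the partners of Tlr2 differed far more than Tlr2 itself. Tlr1, which pairs with Tlr2 for triacylated lipopeptides, had 75 and 60 counts in the SYK WT libraries and 599 and 596 in the SYK KO libraries. This is 2.73 and 2.44 CPM against 29.1 and 32.5 CPM, with no overlap (log2 fold change 3.57, SE 0.23, 95% interval 3.02 to 4.12, edgeR adjusted p = 0.000626). Tlr6, the partner for diacylated lipopeptides, was at 2.26 and 2.20 CPM in the SYK WT libraries and at 22.7 and 18.0 CPM in the SYK KO libraries. Its groups did not overlap either (log2 fold change 3.19, SE 0.27, edgeR adjusted p = 0.000906). Tlr1 and Tlr6 are close paralogs: of the 31-base stretches of Tlr1 transcripts, 18.3% also occur in Tlr6, and 16.4% of those of Tlr6 occur in Tlr1, so part of their counts rests on how shared reads were split.

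Tlr2 had the highest counts of the surface receptors, with 1335 and 956 in the SYK WT libraries and 2127 and 1590 in the SYK KO libraries. Its levels were 48.7 and 38.9 CPM against 103 and 86.6 CPM, a log2 fold change of 1.12 (SE 0.19, 95% interval 0.67 to 1.56, edgeR adjusted p = 0.00594). The groups did not overlap, and the difference was the smallest among the 9 called members. Without SYK WT library M8 the call for Tlr2 was lost (log2 fold change 0.95, edgeR adjusted p = 0.0678). Tlr4, the lipopolysaccharide receptor, was at 15.5 and 13.6 CPM in the SYK WT libraries and at 70.7 CPM in M9 and 32.9 CPM in M10. Both SYK KO libraries were above both SYK WT libraries, but M9 was far above M10 (log2 fold change 1.83, SE 0.36, 95% interval 0.97 to 2.70, edgeR adjusted p = 0.0102). The log2 fold change of Tlr4 was 1.09 without M9 and 2.29 without M10.

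Under TMM scaling, 4 of the endosomal receptors were called higher and Tlr3 was not called. Under the marker scalings these 4 were not called and Tlr3 was called lower (-2.39 with macrophage markers, -3.29 with pan-leukocyte genes). Tlr7, the receptor for single-stranded RNA, was at 8.17 and 4.76 CPM in the SYK WT libraries and at 88.8 and 55.7 CPM in the SYK KO libraries. The groups lay far apart (log2 fold change 3.48, SE 0.35, edgeR adjusted p = 0.00139). Tlr8, its neighbor on the X chromosome, was at 11.2 and 7.81 CPM against 87.6 and 64.1 CPM (log2 fold change 2.997, SE 0.26, edgeR adjusted p = 0.000941). Tlr13 had the highest counts of the endosomal group in the SYK KO libraries, 2627 and 1511, against 362 and 257 in the SYK WT libraries. Its levels were 13.2 and 10.5 CPM against 128 and 82.3 CPM (log2 fold change 3.15, SE 0.27, edgeR adjusted p = 0.000905).

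Tlr9, the CpG DNA receptor, had the lowest counts of all members in the SYK WT libraries. It had 33 and 38 counts there and 306 and 336 in the SYK KO libraries, or 1.20 and 1.55 CPM against 14.9 and 18.3 CPM. This was the largest fitted log2 fold change among the members (3.59, SE 0.32, 95% interval 2.83 to 4.35, edgeR adjusted p = 0.000972), although its interval overlapped those of Tlr1, Tlr6, Tlr7, Tlr8 and Tlr13. Tlr9 is well known in plasmacytoid dendritic cells and B cells. Of 5 plasmacytoid markers, 4 were too low to test, and the defining marker Siglech had 10, 2, 8 and 8 counts in M7, M8, M9 and M10. The tested one, Cox6a2, had 0, 1, 13 and 14 counts and was called higher (edgeR adjusted p = 0.0201). The summed plasmacytoid markers were at 0.766 and 1.30 CPM in the SYK WT libraries and 1.80 and 1.96 CPM in the SYK KO libraries. Of 5 B cell markers, 1 was higher, and their sum was 1.82 and 1.59 CPM against 9.08 and 9.59 CPM. Markers of conventional dendritic cells were also higher for 3 of 5 genes, with sums of 12.2 and 10.8 CPM against 50.1 and 45.4 CPM. Most of the SYK WT sums was Zbtb46, at 10.1 and 8.18 CPM against 8.16 and 7.85 CPM, which was not called (log2 fold change -0.19). Most of the SYK KO sums was Cd209a, at 1.13 and 2.12 CPM against 31.9 and 26.5 CPM. Clec9a was not called either (2.26). The part of these cells in the Tlr9 difference was not tested.

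Tlr3, the receptor for double-stranded RNA and the only receptor here that does not use Myd88, had 319 and 194 counts in the SYK WT libraries and 298 and 188 in the SYK KO libraries. Its levels were 11.6 and 7.89 CPM against 14.5 and 10.2 CPM. M10 lay between the SYK WT libraries, so the groups overlapped, and the log2 fold change was 0.34 (SE 0.31, 95% interval -0.41 to 1.09, edgeR adjusted p = 0.416). The antisense gene Gm45542, which shares 6.10% of the 31-base stretches of Tlr3, had 0 counts in all libraries.

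Myd88, the adaptor of every receptor here but Tlr3, was at 29.6 and 24.3 CPM in the SYK WT libraries and at 70.4 and 70.6 CPM in the SYK KO libraries. The groups did not overlap, and the SYK KO libraries were close to each other (log2 fold change 1.39, SE 0.17, 95% interval 0.98 to 1.80, edgeR adjusted p = 0.00229). The gene Acaa1a on the opposite strand overlaps Myd88 and shares 8.93% of its 31-base stretches. Acaa1a had 1769, 1767, 2037 and 1619 counts, and whether the counting used strand is not given in the sources used here.

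**Figure D1:**
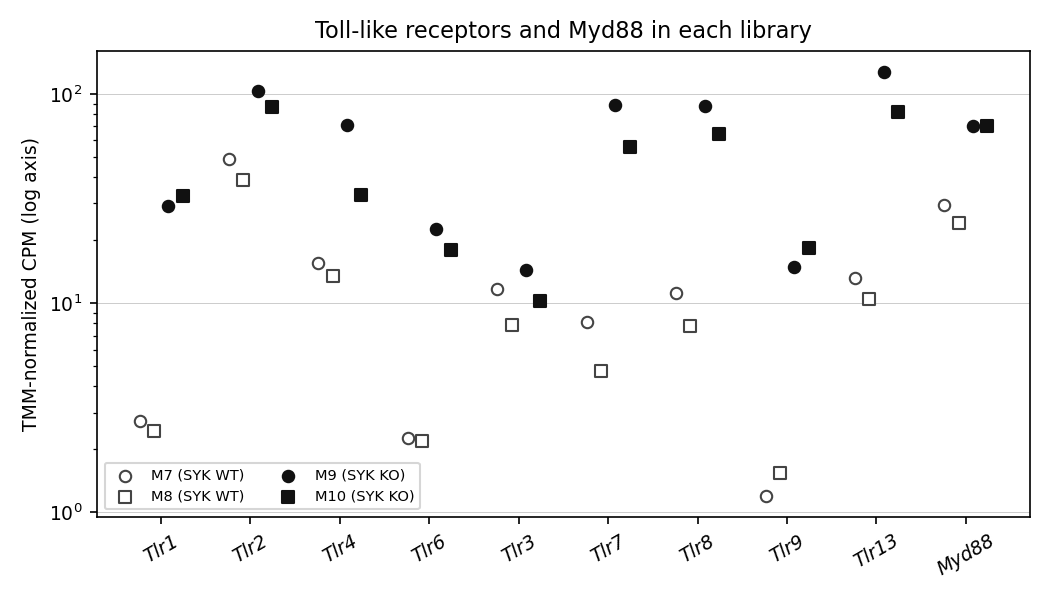
Each point is the level of a member in 1 library (vertical log axis, TMM-normalized CPM), with open symbols for SYK WT and filled symbols for SYK KO. Both SYK KO libraries lie above both SYK WT libraries for 9 members, and for Tlr3 the groups overlap. These are TMM levels: with macrophage-marker scaling 0 members were called higher, and Tlr2, Tlr3, Tlr4 and Myd88 had negative fold changes.

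Over all members, 9 of 10 were called higher and 0 lower by edgeR, and all 10 fold changes were positive, so 0 were lower at an unadjusted p under 0.05 as well. The DESeq2 Wald test called 9 higher and 0 lower too. Of all tested genes, 22.7% were called higher and 16.7% lower. Both SYK KO libraries were above both SYK WT libraries for 9 members, against 38% of all tested genes, and below them for 0 members, against 37.2%. The median log2 fold change of the members was 3.07, and that of all tested genes was 0.02. The 10 macrophage markers had a median of 2.82 and a range of 0.57 to 3.57 by the same measure.

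To set the members against the macrophages in a library, the libraries were scaled so that the 10 macrophage markers had equal geometric means. The result for the members changed. None was then called higher (0 of 10, and 0 at an unadjusted p under 0.05, edgeR), and 3 were called lower, namely Tlr2 (log2 fold change -1.61, edgeR adjusted p = 0.0032), Tlr3 (-2.39, edgeR adjusted p = 0.000133) and Myd88 (-1.31, edgeR adjusted p = 0.0148). Tlr4 had a log2 fold change of -0.998 and was not called (edgeR adjusted p = 0.0691). The other 6, Tlr1, Tlr6, Tlr7, Tlr8, Tlr9 and Tlr13, had values between 0.27 and 0.88 and were not called. Under this scaling 0.833% of all tested genes were called higher and 86.3% lower, and the median over all tested genes was -2.70. The median of the members was 0.32, and Tlr3 was the member nearest to the median of all genes.

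Scaling to 6 pan-leukocyte genes placed every member at or below 0. Again 0 were called higher (0 at an unadjusted p under 0.05, edgeR), and Tlr2 (-2.51), Tlr4 (-1.87), Tlr3 (-3.29) and Myd88 (-2.21) were called lower. Of all tested genes 0.334% were called higher and 92.8% lower under this scaling. The direction for Tlr1, Tlr6, Tlr7, Tlr8, Tlr9 and Tlr13 therefore depended on the reference genes, with values from -0.63 to -0.02 here, and none of these 6 was called with either marker scaling.

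**Figure D2:**
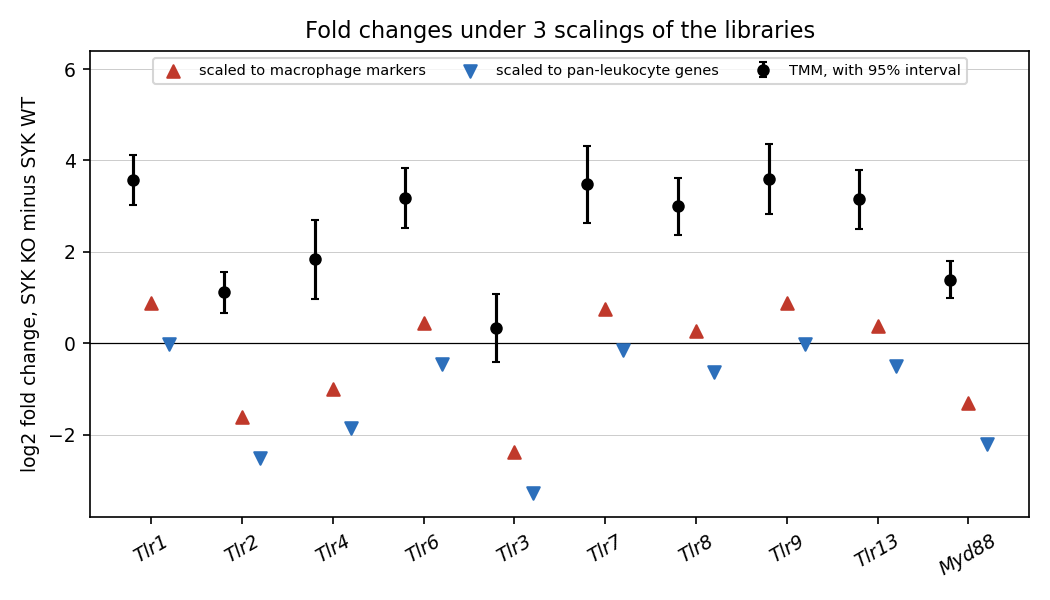
The vertical axis is the log2 fold change, SYK KO minus SYK WT, for each member under TMM (circles, bars are 95% intervals), scaled to macrophage markers (upward triangles) and scaled to pan-leukocyte genes (downward triangles). Under TMM 9 members are called higher and Tlr3 is not, while under the marker scalings 0 members are called higher and Tlr2, Tlr3 and Myd88 are called lower, with Tlr4 also called lower under the pan-leukocyte scaling.

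The same contrast was read within each library as the log2 level of a member (CPM + 0.5) minus the mean of the 10 macrophage markers, which does not depend on the scaling of libraries apart from the 0.5 added. Tlr7 was at -3.49 and -3.70 in the SYK WT libraries and at -2.93 and -2.94 in the SYK KO libraries, a difference of 0.66. Tlr1 differed by 0.61, Tlr13 by 0.34 and Tlr8 by 0.21, and for these 4 members both SYK KO values were above both SYK WT values. The margin was small for Tlr1, at -4.53 in M9 and -4.54 in M8. Tlr2 was at -0.99 and -0.79 in the SYK WT libraries and at -2.72 and -2.30 in the SYK KO libraries, a difference of -1.62. Tlr4 (-1.03), Myd88 (-1.35) and Tlr3 (-2.40) were also below, with no overlap. The share of all tested genes without overlap was not computed on this measure. With macrophage-marker scaling 86.3% of all tested genes were called lower, so low values here are not particular to these members. Tlr6 (0.19) and Tlr9 (0.46) overlapped. With 2 libraries against 2, the exact two-sided permutation test cannot go below p = 0.333, which it gave for the 8 members without overlap. The exact permutation p was 0.667 for Tlr6 and Tlr9.

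**Figure D3:**
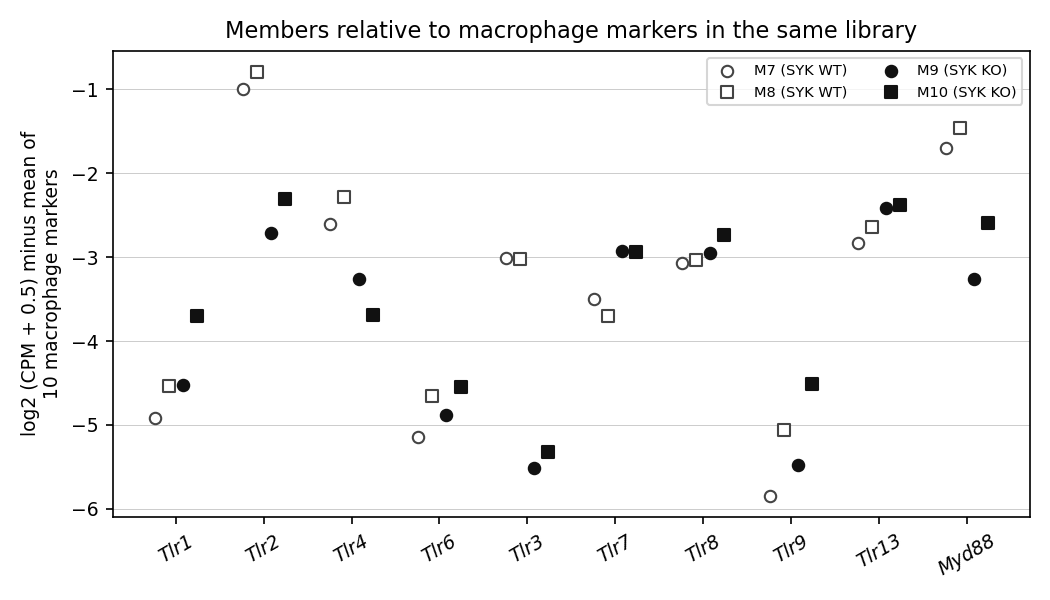
Each point is the log2 level of a member minus the mean log2 level of 10 macrophage markers in 1 library, with open symbols for SYK WT and filled symbols for SYK KO. Tlr2, Tlr3, Tlr4 and Myd88 are lower in both SYK KO libraries. Tlr1, Tlr7, Tlr8 and Tlr13 lie above the SYK WT libraries, with differences of group means of 0.21 to 0.66. For Tlr1 the nearest points nearly meet (-4.53 in M9 and -4.54 in M8).

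For a comparison between genes, levels were divided by exon length (CPM per kb). In the SYK WT libraries Tlr2 was highest with 14.5 ± 2.29 CPM per kb (SD, n = 2), followed by Myd88 with 10.5 ± 1.47. Tlr13 (2.75 ± 0.45), Tlr8 (2.64 ± 0.66) and Tlr4 (2.62 ± 0.25) came next and overlapped. Tlr3 (1.87 ± 0.51) and Tlr7 (1.58 ± 0.59) overlapped as well, and Tlr1 (0.773 ± 0.062), Tlr6 (0.598 ± 0.012) and Tlr9 (0.395 ± 0.070) were lowest and apart from each other.

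In the SYK KO libraries the order of means was the same for Tlr2, Myd88, Tlr13 and Tlr8 and different below them. Tlr2 was again highest with 31.5 ± 3.90 CPM per kb (SD, n = 2). Myd88 (27.4 ± 0.061), Tlr13 (24.4 ± 7.43) and Tlr8 (21.2 ± 4.64) followed, each overlapping the next, and Tlr7 (17.7 ± 5.73) overlapped Tlr8. Tlr4 (9.33 ± 4.81) and Tlr1 (9.20 ± 0.72) overlapped, as did Tlr6 (5.45 ± 0.89) and Tlr9 (4.77 ± 0.70). Tlr3 was last with 2.37 ± 0.57.

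As a share of the summed Toll-like receptor reads per kb, Tlr2 made up 51.9% and 52.9% in the SYK WT libraries and 23.7% and 26.8% in the SYK KO libraries. The 4 surface receptors together took 65.4% and 68.3% against 42.7% and 45.9%, and the 5 endosomal receptors 34.6% and 31.7% against 57.3% and 54.1%. The groups did not overlap for the surface share, and the endosomal share is the remainder of the same total. The 3 X-linked receptors, Tlr7, Tlr8 and Tlr13, took 26.3% and 23.7% against 52.4% and 47.3%, and Tlr3 took 7.18% and 6.21% against 1.92% and 1.84%. These shares and the ratios below were chosen after the values were seen and carry no test.

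**Figure D4:**
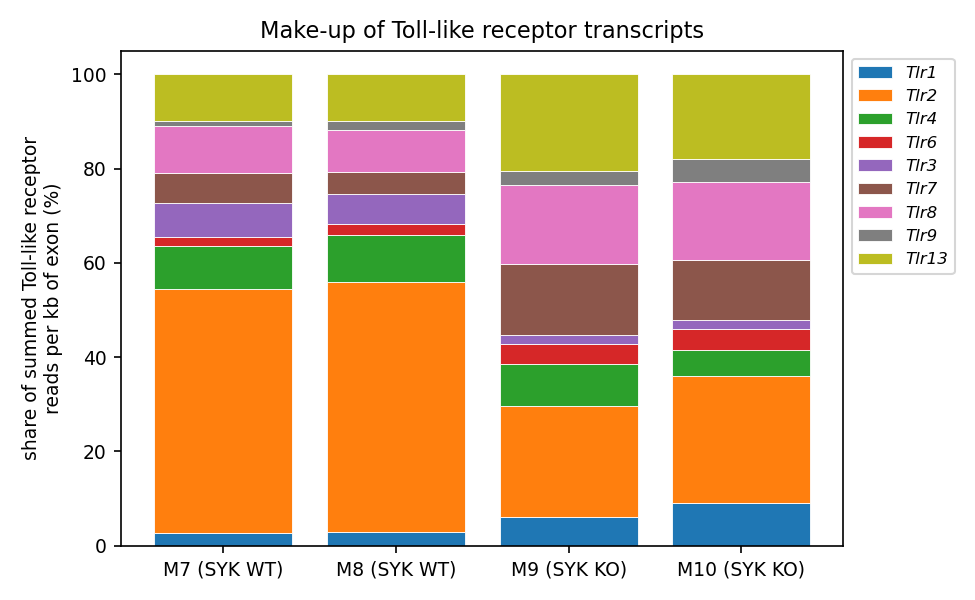
Each bar is 1 library and is divided by the share (vertical axis, %) of each receptor in the summed Toll-like receptor reads per kb of exon. Tlr2 takes 51.9% and 52.9% in the SYK WT libraries and 23.7% and 26.8% in the SYK KO libraries, where Tlr7, Tlr8 and Tlr13 take larger shares.

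Ratios of reads per kb within a library do not depend on how the libraries were scaled. Tlr2 was 19.8 and 17.7 times the level of Tlr1 in the SYK WT libraries and 3.94 and 2.96 times in the SYK KO libraries. The ratio of Tlr2 to Tlr6 was 26.6 and 21.9 against 5.63 and 5.96. The excess of Tlr2 over its partners was thus smaller in both SYK KO libraries. Among the endosomal receptors, Tlr13 to Tlr3 was 1.37 and 1.60 against 10.7 and 9.72. Myd88 was 3.75 and 3.87 times the level of Tlr13 in the SYK WT libraries and 0.922 and 1.43 times in the SYK KO libraries. Tlr7 to Tlr9 was 5.78 and 2.62 against 5.09 and 2.59, so the groups overlapped.

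Genes linked to sex moved with the same contrast and are given because 3 receptors are X-linked. Xist had 77 and 28 counts in the SYK WT libraries and 1006 and 159 in the SYK KO libraries, and the Y-linked genes Ddx3y, Eif2s3y, Kdm5d and Uty had counts in every library. All 5 were called higher, and the sum of the 5 was 21.4 and 20.6 CPM against 138 and 132 CPM. The like sums of M9 and M10 hide a different make-up. Xist was higher in M9, whereas Uty had 52, 59, 136 and 858 counts in M7, M8, M9 and M10. The X-linked members Tlr7, Tlr8 and Tlr13 had log2 fold changes of 3.48, 2.997 and 3.15 under TMM. The part of sex in the X-linked differences was not tested.

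The wider pathway was followed in 73 further genes, of which 70 could be tested. Under TMM scaling, 42 were higher, 7 lower and 21 not called, with a median log2 fold change of 1.21. Over all tested genes 22.7% were higher and 16.7% lower. The count of lower genes was 2 without M8, 12 without M9 and 11 without M10. With the libraries scaled to macrophage markers, 1 was higher and 40 of 70 were lower, beside 86.3% lower over all tested genes. The 1 gene still higher was Ly86 (log2 fold change 1.71, edgeR adjusted p = 0.00264), which encodes the partner of the Toll-like protein Cd180. With pan-leukocyte scaling 0 were higher (0 at an unadjusted p under 0.05, edgeR) and 51 of 70 were lower, beside 92.8% over all tested genes.

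Receptors outside the members, and co-receptors, were mostly higher under TMM. Tlr5, the flagellin receptor, had a log2 fold change of 1.25 (edgeR adjusted p = 0.0324) and Tlr12, a receptor for parasite profilin, one of 3.98 (edgeR adjusted p = 0.00263), while Tlr11 had 2, 4, 58 and 9 counts in M7, M8, M9 and M10 and was not tested. Of 6 co-receptor genes 5 were higher, beside 22.7% of all tested genes, and Lbp was not called (-0.74). Cd14, which hands lipopolysaccharide to Tlr4, was at 66.4 and 43.7 CPM in the SYK WT libraries and at 753 and 482 CPM in the SYK KO libraries (log2 fold change 3.49). Ly96, the MD-2 subunit that binds lipopolysaccharide next to Tlr4, was at 4.01 and 2.81 CPM against 12.6 and 6.76 CPM (1.51). Per kb, Cd14 stood at 13.7 and 10.3 times Tlr4 in the SYK WT libraries and at 34.1 and 47.0 times in the SYK KO libraries, whereas Ly96 stayed between 0.971 and 1.41 times Tlr4. Ly86 (4.40) and Cd180 (3.78), which form a complex related to Ly96 and Tlr4, differed more than Tlr4. With macrophage-marker scaling, among these receptors and co-receptors only Ly86 was called higher and only Lbp lower. Cd14 (0.74), Cd36 (0.34), Cd180 (1.07), Ly96 (-1.27), Tlr5 (-1.48) and Tlr12 (1.36) were then not called.

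Under TMM, 9 of 10 genes that carry endosomal receptors or act beside them in endosomes were higher (median 1.93), beside 22.7% of all tested genes. With macrophage-marker scaling 0 were higher (0 at an unadjusted p under 0.05, edgeR) and 4 lower, beside 86.3% lower over all tested genes. Unc93b1, the chaperone that delivers the nucleic acid-sensing receptors to endosomes, was at 82.4 and 69.4 CPM in the SYK WT libraries and at 487 and 427 CPM in the SYK KO libraries (log2 fold change 2.59). The protease Ctss had a log2 fold change of 3.12, the endosomal nuclease Pld4 one of 3.33 and its relative Pld3 one of 1.38. Slc15a4, a lysosomal transporter needed for Tlr7 and Tlr9 responses, was at 51.0 and 26.3 CPM against 32.0 and 30.1 CPM and was not called. Per kb, Unc93b1 was 13.6 and 19.6 times Tlr7 in the SYK WT libraries and 7.39 and 10.3 times in the SYK KO libraries.

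Downstream of Myd88, 4 of 14 kinase and ubiquitin genes were higher under TMM, 3 lower and 7 not called, which is near the shares over all tested genes (22.7% higher, 16.7% lower), and their median log2 fold change was -0.19. With macrophage-marker scaling 0 were higher (0 at an unadjusted p under 0.05, edgeR) and 13 of 14 lower, again near the shares over all tested genes (0.833% higher, 86.3% lower). Irak4, the first kinase to bind Myd88, was higher (1.41), as was Irak2 (1.74), while Irak1 was lower (141 and 156 CPM against 73.3 and 75.1 CPM, -1.01). Chuk, a kinase of the NF-kappaB pathway (-0.92), and Map3k7, which encodes Tak1 (-0.60), were also lower. Of the other adaptors, Ticam2, which links Tlr4 to Ticam1, had a log2 fold change of 2.67, Ticam1, the adaptor of Tlr3, had 0.56 and Tirap was not called (-0.10). Irf5 (3.01) and Irf7 (1.30), transcription factors engaged by Myd88, were higher and Irf3 was not called (-0.38). Among 6 negative regulators, Irak3 (2.91) and Tnfaip3 (2.34) were higher and 4 were not called. Of 5 genes of the interleukin-1 receptor family, which also signal through Myd88, 0 were higher (0 at an unadjusted p under 0.05, edgeR), and Il1r1 (-1.43) and Il1rl1 (-1.37) were lower. The values of these adaptors, Irf factors, negative regulators and interleukin-1 receptor genes are under TMM. With macrophage-marker scaling 0 of them were higher (0 at an unadjusted p under 0.05, edgeR). Lower were Tirap, Ticam1, Irf3, Irf7, 3 of 6 negative regulators and all 5 interleukin-1 receptor genes, beside 86.3% over all tested genes.

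Of the genes that Toll-like receptor signaling is known to induce, 12 of 13 tested were higher under TMM, beside 22.7% of all tested genes. With macrophage-marker scaling 0 were higher (0 at an unadjusted p under 0.05, edgeR) and 4 lower, beside 86.3% lower over all tested genes. Acod1, the itaconate enzyme, was at 3.54 and 4.19 CPM in the SYK WT libraries and at 62.4 and 45.6 CPM in the SYK KO libraries (log2 fold change 3.81). Il1b (3.87), Cxcl2 (3.75) and Tnf (3.69) were of like size, Ptgs2 was not called (0.66), and Il12b and Ifnb1 were too low to test. Of 8 genes for endogenous ligands, 4 were higher, among them S100a9 (3.67) and S100a8 (3.12), and the matrix genes Tnc (-2.47) and Bgn (-1.08) were lower. Neutrophil markers moved as well: 3 of 3 tested were higher, with sums over all 6 of 11.8 and 16.9 CPM in the SYK WT libraries and 117 and 80.7 CPM in the SYK KO libraries, and Ly6g had 2, 0, 5 and 1 counts. The part of neutrophils in the S100a8, S100a9 and Il1b values was not tested. With the libraries scaled to macrophage markers, Acod1 (1.01, edgeR adjusted p = 0.0892), Il1b (1.03, edgeR adjusted p = 0.0604), Cxcl2 (0.89, edgeR adjusted p = 0.114) and Tnf (0.85, edgeR adjusted p = 0.182) were not called.

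**Figure D5:**
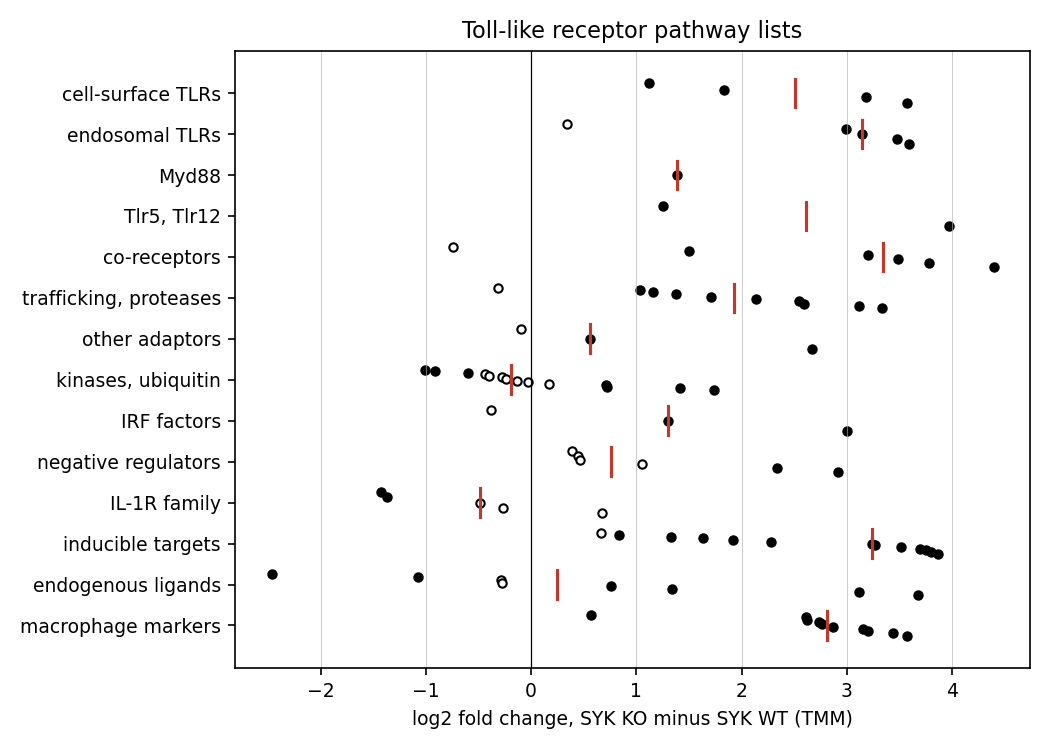
The horizontal axis is the log2 fold change under TMM, SYK KO minus SYK WT, and each point is a tested gene of the list named at the left, filled where called and open where not, with the list's median as a vertical bar. The endosomal receptors (median 3.15) and inducible targets (median 3.24) lie near the macrophage markers (median 2.82), and the kinase and ubiquitin genes are centred at -0.19. Scaled to macrophage markers, only Ly86 among the pathway genes is called higher.

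The genes whose pattern over the 4 libraries was most like the mean of the members were searched among 14253 tested genes with a mean of at least 1 CPM. They were B4galt6 (root mean square difference 0.035 on the log2 scale), a glycosyltransferase gene at 13.7, 12.0, 77.3 and 60.8 CPM in M7, M8, M9 and M10, H2-Q10 (0.035), a class I histocompatibility gene, and Traf1 (0.044), a signaling adaptor of tumor necrosis factor receptors. Likeness over 4 libraries in 2 groups is a description of these libraries.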

How the data were processed

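Cells labelled as TAMs from NB9464 tumors were profiled by poly(A) RNA sequencing in 4 libraries, 2 per genotype. Per the labels, sequencing was paired-end on a NovaSeq instrument, whereas the methods of the study describe single reads on a HiSeq in triplicate. The deposited values are whole-number counts per Ensembl gene. Per the methods and the submitters' processing notes, the authors used STAR (2.6.1d) to map to mm10 and Salmon (1.4.0) for quantification, within a bcbio pipeline, and named Picard (2.26), SAMtools (1.9) and MultiQC (1.11). How whole numbers were made from Salmon estimates, the annotation release and the use of strand are not given in the sources used here.

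Gene symbols, positions and exon lengths came from GENCODE M21 (54495 of 54532 genes matched). Groups were taken from the genotype labels. The main test was the quasi-likelihood test of edgeR (4.0.16, R 4.3.3) with filterByExpr and TMM over 16451 genes and Benjamini-Hochberg adjustment over all of them, with a threshold of 0.05. The Wald test of DESeq2 (1.42.0), which the study used, was an alternative. A level of 3 counts equals 0.109 to 0.163 CPM, which covers counting error only. Replicates of a group differed beyond sampling noise (chi-square per degree of freedom 36.8 in SYK WT, 128 in SYK KO). The scripts were tested on simulated data. The members and gene lists were chosen with earlier results of these data known. From each pathway list at most 4 genes of smallest adjusted p were eligible as examples, plus those called against the list's majority. Other genes are named where a member acts with them or where they missed the test, and these were chosen after their values were seen.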

Additional observations from a re-analysis of the deposited data

How the results depend on the processing

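The counts of members and pathway genes changed most with the reference used for scaling. TMM gave 9 members higher and 0 lower, macrophage-marker scaling gave 0 and 3, and pan-leukocyte scaling gave 0 and 4. Pathway genes went from 42 higher and 7 lower to 1 and 40 with macrophage markers and to 0 and 51 with pan-leukocyte genes, and library size alone gave 13 lower. Over all tested genes the split was 3729 higher and 2747 lower with TMM, 1677 and 5411 by library size, 137 and 14200 with macrophage markers and 55 and 15270 with pan-leukocyte genes, and the median of all genes moved from 0.02 to -0.52, -2.70 and -3.60. Log2 fold changes turned negative with macrophage markers for Tlr2 (-1.61), Tlr4 (-0.998), Tlr3 (-2.39) and Myd88 (-1.31). With pan-leukocyte genes they were negative for all 10 members: Tlr1 -0.0249, Tlr2 -2.51, Tlr4 -1.87, Tlr6 -0.46, Tlr3 -3.29, Tlr7 -0.15, Tlr8 -0.63, Tlr9 -0.0195, Tlr13 -0.51 and Myd88 -2.21. By library size alone Tlr3 was at -0.19, Tlr2 was no longer called (0.59, edgeR adjusted p = 0.0757) and 8 members were higher.

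Leaving out 1 library gave 8 to 9 members higher and 0 lower, 30 to 47 pathway genes higher and 2 (without M8) to 12 (without M9) lower. Tlr3 ranged from -0.0188 (without M9) to 0.65 (without M7). The median of the members relative to macrophage markers, 0.20, was between 0.00 and 0.34 with 1 library left out and -0.68 with pan-leukocyte genes as the reference. DESeq2 size factors, the DESeq2 test, both count filters, leaving out mitochondrial and rRNA-like genes and a threshold of 0.1 each kept 9 members higher and 0 lower. Of the member fold changes under all alternative settings, 106 kept direction and side of the threshold. Another 8 kept direction but were no longer called, and 16 turned sign, some of which also lost their call. The threshold of 0.1 was applied to the main fit, so its fold changes could not differ and no call could be lost. The causes of these changes were not tested. No paired analysis was possible because the groups share no replicate numbers. The lowest count of a member was 33, for Tlr9, and with 2 libraries against 2 the exact permutation test cannot go below p = 0.333.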
